A study of Mus musculus with 6 samples.

Results

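Malat1, Neat1 and Gm26917 are long non-coding RNA genes that rank among the most heavily counted RNAs of cultured satellite cells, the resident stem cells of skeletal muscle. They are 3 of the 55536 genes in the deposited count files, and all 3 were among the 22404 genes that passed the filter on low counts. They were listed by symbol for their abundance, that is, selected on their share of all counts over the 6 samples, so their levels are given as a description with no test. GENCODE M21 annotates each of them as a lincRNA, a class that holds 5854 genes. RNA was measured in 3 control samples, Pax7CreErt2;Hira fl/+, and in 3 conditional knockout (cKO) samples, Pax7CreErt2;Hira fl/fl, all from adult male C57BL/6J mice. Controls carried the Cre transgene and 1 floxed allele and received the tamoxifen diet as well, although the sample labels call them wild type. Pax7CreErt2 places the Cre recombinase in cells that express Pax7, so the deletion of Hira, a histone H3.3 chaperone gene, was aimed at satellite cells. The cells were sorted at 5 days after BaCl2 injury of the tibialis anterior as CD34+ ITGA7+ CD45- TER119- SCA1- cells, and were cultured for 48 h in high-serum medium at low density. The study calls these independent RNA samples and does not state whether each came from a separate mouse, so p-values measure the spread between these samples.

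Malat1 accumulates in nuclear speckles, the bodies where splicing factors concentrate. Neat1 is the scaffold of paraspeckles, and only its long isoform assembles them together with RNA-binding proteins such as NONO and SFPQ. The long transcripts of these neighbouring genes do not end in an ordinary poly(A) tail: RNase P cuts upstream of a tRNA-like structure, and the new 3′ end folds into a triple helix of U-rich stretches and a genome-encoded A-rich tract. Gm26917 is a GENCODE gene model for which no comparable role is given here. In the mouse pre-ribosomal RNA, an external spacer precedes the 18S rRNA, and Gm26917 lies directly in front of an 18S-related sequence.

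The 3′ ends of Malat1 and Neat1 are shown because they carry the elements that keep these transcripts stable in the nucleus, and the end of Gm26917 is shown because it differs from both. All sequences are from GENCODE M21 transcripts on mm10, written 5′ to 3′ with T. The Malat1 stretch lies at chr19:5795982-5796101 on the minus strand and ends 292 bases before the annotated end of the gene, and the Neat1 stretch lies at chr19:5824708-5824827 on the minus strand, at the end of the longest transcript. In both, capitals mark the U-rich stretches TTTCTTTT and TTTGCTTTT and the A-rich run that both genes share.
Malat1: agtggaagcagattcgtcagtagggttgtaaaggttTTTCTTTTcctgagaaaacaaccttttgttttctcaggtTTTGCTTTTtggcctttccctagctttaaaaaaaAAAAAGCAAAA
Neat1: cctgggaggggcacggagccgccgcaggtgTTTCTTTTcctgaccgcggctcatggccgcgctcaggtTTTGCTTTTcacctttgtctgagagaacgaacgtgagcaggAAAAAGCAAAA

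The shared run AAAAAGCAAAA was present in 618 of 141767 transcripts, or 0.436%, when searched on the transcript strand. Among the 9101 lincRNA transcripts it was present in 27, or 0.297%, and among the 7040 transcripts of at least 5 kb in 187, or 2.66%. Only 9 transcripts ended in it, the longest Neat1 transcript among them. The next bases of each gene are the tRNA-like parts. Those of Malat1, the source of mascRNA, lie at chr19:5795921-5795981 on the minus strand inside the annotated gene. Those of Neat1 lie at chr19:5824652-5824707 on the minus strand and are annotated as a gene of their own, Gm27702, which adjoins the end of Neat1 with 0 bases between. Capitals mark 2 of the runs that both share, those in the arm and loop that resemble the T arm of a tRNA.
Malat1 downstream: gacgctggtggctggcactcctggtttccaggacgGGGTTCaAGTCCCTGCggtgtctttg
Gm27702: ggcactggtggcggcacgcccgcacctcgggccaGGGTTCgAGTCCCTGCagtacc

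The end of Gm26917, at chr17:39846222-39846341 on the plus strand, holds neither U-rich stretch. Capitals mark its 18 CG dinucleotides, against 1 in the Malat1 stretch and 9 in the Neat1 stretch.
Gm26917: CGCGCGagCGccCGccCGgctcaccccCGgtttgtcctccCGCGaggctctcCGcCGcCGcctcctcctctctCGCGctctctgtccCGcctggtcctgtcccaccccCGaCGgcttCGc

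The genes also differed over their whole length. Malat1 (ENSMUSG00000092341) spans chr19:5795690-5802672 on the minus strand, with 4 annotated transcripts, the longest 6983 bases in a single exon with 42.5% G or C. Neat1 (ENSMUSG00000092274) spans chr19:5824708-5845478 on the same strand, with 4 transcripts, the longest 20771 bases with 47.3% G or C. Gm26917 (ENSMUSG00000097971) spans chr17:39843013-39846341 on the plus strand, with 2 transcripts, the longest 3329 bases with 69.1% G or C. Its transcript held 11.2 CG dinucleotides per 100 bases, against 1.32 in Malat1 and 1.54 in Neat1. The shorter Neat1 isoform lies within the longer, so counts per gene cannot tell the isoforms apart.

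Between 47944477 and 63323577 reads were counted on genes per sample, and the counts of every pair of replicates differed by more than sampling noise. All 37 genes of the mitochondrial chromosome were listed at 0 in every sample, so a share of all counts is here a share of the counts on genes annotated to other chromosomes. Whether reads of mitochondrial RNA were counted on those genes was not tested. As a check of the labels, Hira was examined: 375, 348 and 341 reads were counted on it in the 3 controls, and 161, 293 and 272 in the 3 cKO samples. Its log2 fold change was -0.43 (SE 0.12, adjusted p = 0.0237, edgeR quasi-likelihood test). This fall was smaller than the decrease that the study reported for Hira by RT-qPCR, a different assay, in cKO satellite cells. HIRA protein was not detected there. Without control replicate 1, the log2 fold change of Hira was -0.34 with an adjusted p of 0.104, and without cKO replicate 1, the sample with 161 counts, it was -0.29 with an adjusted p of 0.0459. In the same test, 2101 of the 22404 genes were higher in cKO (9.38%) and 1448 were lower (6.46%), together 15.8% at an adjusted p under 0.05.

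Malat1 and Neat1 were higher in the Hira cKO samples. Gm26917 was lower, called by edgeR but not by DESeq2. Malat1, the speckle RNA, took 0.853%, 0.793% and 0.808% of all counts in controls 1 to 3, and 1.05%, 1.26% and 1.18% in cKO samples 1 to 3. The cKO samples all lay above the control samples, with the highest in replicate 2. The mean rose from 0.818% ± 0.0312 (SD, n = 3) to 1.16% ± 0.103 (SD, n = 3), and the log2 fold change after TMM scaling was 0.49 (SE 0.05, adjusted p = 5.9e-06, edgeR), or 40.0% more. By counts, Malat1 ranked 5, 5 and 4 among all genes in the control samples and 1 in each of the 3 cKO samples.

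Neat1, the paraspeckle scaffold, took 0.122%, 0.125% and 0.128% of all counts in controls 1 to 3, against 0.148%, 0.164% and 0.154% in cKO samples 1 to 3. Its groups did not overlap either, and cKO replicate 2 was again the highest. The mean rose from 0.125% ± 0.00263 to 0.156% ± 0.00818 (SD, n = 3 in each group), with a log2 fold change of 0.29 (SE 0.04, adjusted p = 3.5e-05, edgeR), or 22.6% more. Its rank by counts moved from 56, 58 and 57 in the control samples to 42, 38 and 42 in cKO.

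Gm26917, the gene model beside the 18S-related sequence, went the other way. It took 0.881%, 0.841% and 0.772% of all counts in controls 1 to 3, against 0.727%, 0.600% and 0.740% in cKO samples 1 to 3. The groups did not overlap, but the highest cKO sample and the lowest control sample were close, and cKO replicate 2 stood lowest. The mean fell from 0.831% ± 0.0550 to 0.689% ± 0.0772 (SD, n = 3 in each group), with a log2 fold change of -0.29 (SE 0.07, adjusted p = 0.0065, edgeR), a change of -18.4%. This call rested on the test used: DESeq2 gave a log2 fold change of -0.30 with an adjusted p of 0.0545. Leaving out cKO replicate 2 brought the log2 fold change to -0.20 with an adjusted p of 0.0318 in edgeR.

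**Figure D1:**
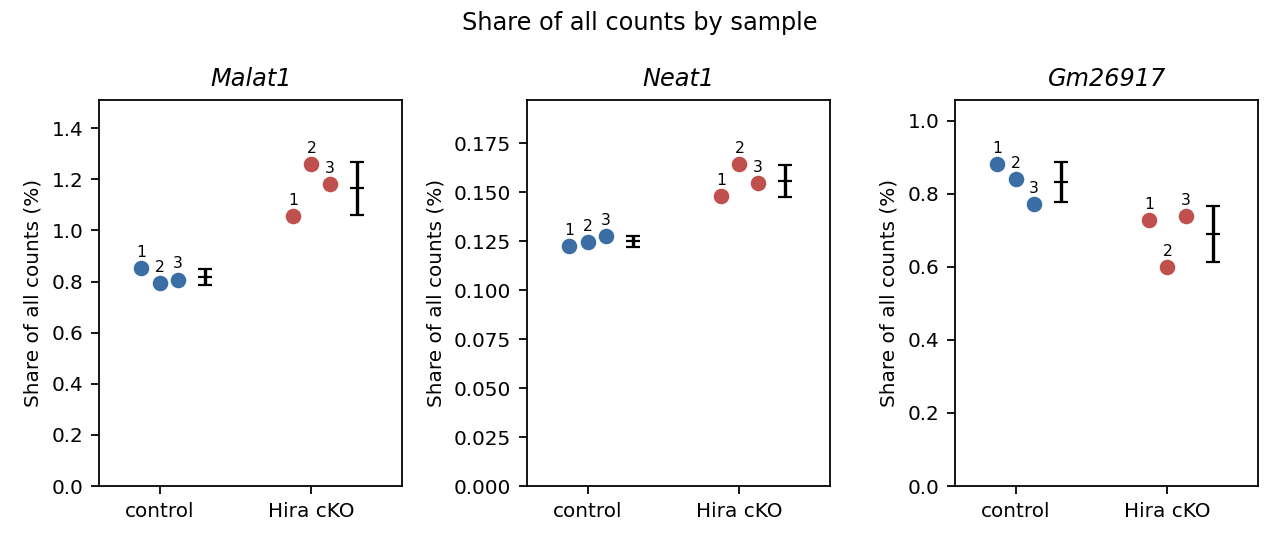
Share of all counts on genes (percent, axes from 0) taken by Malat1, Neat1 and Gm26917 in each sample, with control in blue, Hira cKO in red, the replicate number above each point, and the mean ± SD of 3 samples as a black bar. Every cKO sample lies above the controls for Malat1 and Neat1 and below them for Gm26917, whose nearest samples are 0.772% and 0.740%.

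The number of counts behind these shares was large, from 69154 for Neat1 in control replicate 1 to 745083 for Malat1 in cKO replicate 2. The half-width of the 95% Wilson interval was between 0.225% and 0.745% of the share itself. It covers counting error only. The SD between replicates was larger, up to 11.2% of the mean, in Gm26917 of the cKO samples. For each member the exact two-sided permutation test on the shares gave p = 0.1, the smallest p that 3 samples against 3 can give. Groups that did not overlap in CPM, counts scaled to a fixed library total, were seen for 31.4% of all tested genes. Among all tested genes, 90.6% had a smaller absolute log2 fold change than Malat1, 80.9% a smaller one than Neat1, and 81.0% a smaller one than Gm26917. In these bulk samples, a change in how many cells express an RNA and a change in the RNA per cell cannot be told apart.

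The 3 genes together took 1.86%, 1.76% and 1.71% of all counts in controls 1 to 3, against 1.93%, 2.02% and 2.07% in cKO samples 1 to 3, a mean of 1.77% ± 0.0757 against 2.01% ± 0.0733 (exact permutation p = 0.1). Malat1 and Neat1 alone went from 0.943% ± 0.0295 to 1.32% ± 0.111 (SD, n = 3 in each group). The remaining 5851 lincRNA genes took 1.07% ± 0.0309 in control and 1.07% ± 0.0372 in cKO, with overlapping groups (exact permutation p = 1). The members made up 61.8% to 62.7% of all lincRNA counts in the control samples and 65.2% to 65.4% in the cKO samples. Of 779 lincRNA genes tested, 47 were higher and 22 lower in cKO, and their median log2 fold change was 0.0016. Over all tested genes, 9.38% were higher and 6.46% lower.

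Levels of different genes were compared per length, as RPKM (counts divided by exon length and library total). Gm26917 had 2497 ± 165 RPKM in control and 2070 ± 232 RPKM in cKO, Malat1 had 1172 ± 44.7 and 1668 ± 148 RPKM, and Neat1 had 60.1 ± 1.27 and 74.9 ± 3.94 RPKM (SD, n = 3 in each group). The order was Gm26917, Malat1, Neat1 in all samples but cKO replicate 2, where Gm26917 and Malat1 stood at 1803 and 1804 RPKM. In control the 3 levels were separated by more than their spread, while in cKO the ranges of Gm26917 and Malat1 overlapped, 1803 to 2222 RPKM against 1511 to 1804. Neat1 ran at 4.82%, 5.28% and 5.31% of the RPKM of Malat1 in controls 1 to 3, against 4.72%, 4.38% and 4.40% in cKO samples 1 to 3. Ranked by RPKM, Neat1 was only at place 1260 to 1292 in control and 955 to 1102 in cKO. All Neat1 counts were divided by the length of the long isoform. Where reads came from the shorter isoform, the RPKM of Neat1 and its rank are understated.

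Ratios within a sample do not depend on how libraries are scaled. The log2 ratio of Gm26917 to Malat1 counts was 0.046, 0.083 and -0.065 in controls 1 to 3, near equal counts, against -0.54, -1.07 and -0.67 in cKO samples 1 to 3. The difference of the means, cKO minus control, was -0.78 (exact permutation p = 0.1). The log2 ratio of Neat1 to Malat1 counts was -2.80, -2.67 and -2.66 in controls 1 to 3, against -2.83, -2.94 and -2.93 in cKO samples 1 to 3, a difference of -0.19 (exact permutation p = 0.1). The groups of this ratio lay close at their nearest samples, control replicate 1 and cKO replicate 1. Relative to Malat1, the other 2 genes were thus lower in every cKO sample than in every control sample.

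Near the members in abundance stood other non-coding RNAs that were not listed with them. H19, an imprinted lincRNA, took 0.711% to 0.791% of all counts, well above Neat1, with a log2 fold change of -0.04 (SE 0.04, adjusted p = 0.545, edgeR). Rn7sk, the small nuclear RNA that holds the transcription elongation factor P-TEFb inactive, took 0.880%, 1.36% and 1.44% in the controls, against 0.646%, 0.527% and 0.766% in the cKO samples, and had a log2 fold change of -0.95 (SE 0.15, adjusted p = 0.00031, edgeR). Next below Neat1 among lincRNAs, 2900097C17Rik took a mean of 0.0444% and Gm28653 0.0340%. Among the 45 tested genes with a mean share at or above that of Neat1, 10 were higher and 20 were lower in cKO, or 66.7%, against 15.8% of all tested genes. Their median absolute log2 fold change was 0.17. Malat1 was 1 of 3 of them with a log2 fold change at least its own, and Gm26917 was 1 of 6 at or below its own.

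**Figure D2:**
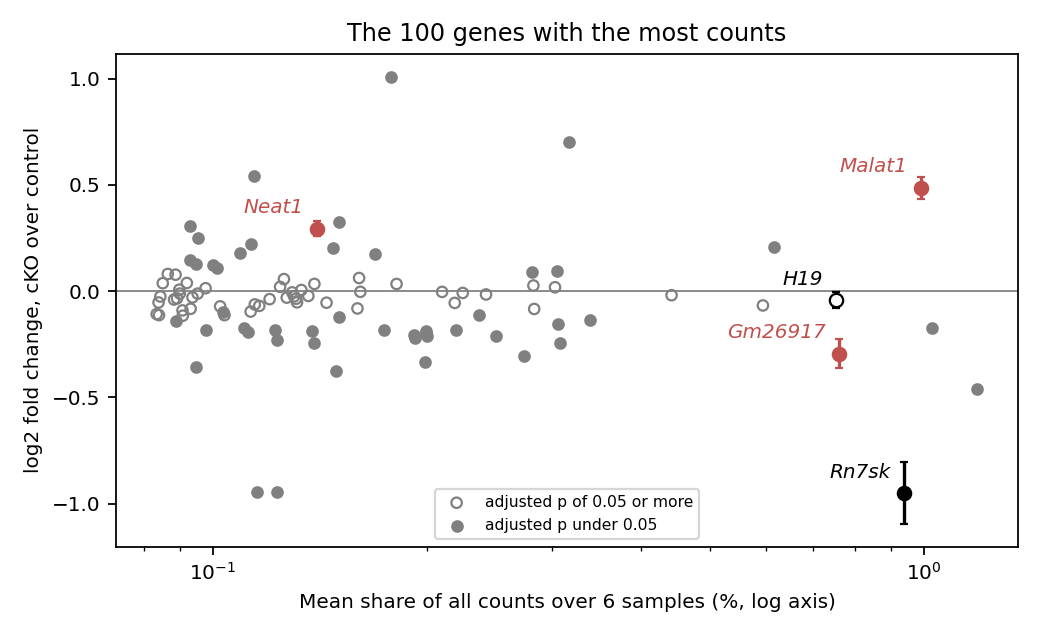
Log2 fold change of Hira cKO over control (edgeR, TMM scaling) against the mean share of all counts over 6 samples (percent, log axis) for the 100 genes with the most counts. Filled points have an adjusted p under 0.05, members are red with SE bars, and H19 and Rn7sk are black with SE bars. Malat1 at 0.49 and Neat1 at 0.29 lie above 0, Gm26917 at -0.29 below it, and H19 at -0.04 beside it.

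Malat1 and Neat1 lie on chromosome 19 with 22035 bases between them, both read on the minus strand. Of the 35 other annotated genes within 200 kb of either, 23 were tested. In cKO 1 was higher and 1 lower, against 9.38% and 6.46% of all tested genes. The median log2 fold change was -0.01 and the range ran from -0.33 to 0.50. Slc25a45, a mitochondrial carrier gene, was higher by 0.31 on the log2 scale (SE 0.09, adjusted p = 0.0234), a call lost in 6 of 13 other settings. Capn1, which encodes a calpain protease, had a log2 fold change of -0.15 (SE 0.03, adjusted p = 0.0067).

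Frmd8, beyond Neat1, was at 0.04 on the log2 fold change scale with an adjusted p of 0.597. Frmd8os, which starts close to the start of Neat1, had only 10 to 19 counts per sample and a log2 fold change of -0.12 (SE 0.32, adjusted p = 0.863). Farther out, Ltbp3 was at -0.01, Ehbp1l1 at 0.01 and Rela, the NF-kappa-B subunit gene, at 0.01 on the log2 fold change scale, all with adjusted p above 0.9. Further tested genes of the stretch, none of them called, included Kat5, Rnaseh2c, Sipa1, Pcnx3, Map3k11, Kcnk7, both loci named Sssca1, Tigd3, Dpf2, Gm42067, Cdc42ep2, Pola2, Gm10814 and Gm8034. Gm27702, the tRNA-like RNA beside Neat1, had 0, 2 and 2 counts in the controls, against 0, 5 and 0 in the cKO samples, too few to compare.

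**Figure D3:**
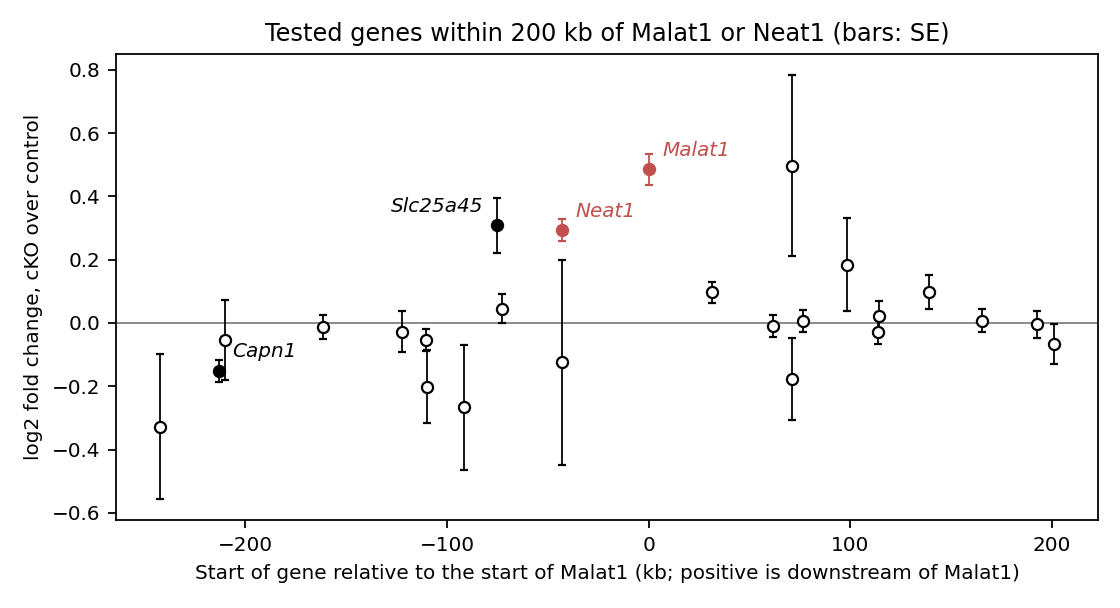
Log2 fold change of Hira cKO over control with SE bars for the tested genes within 200 kb of Malat1 or Neat1, against the start of each gene relative to the start of Malat1 (kb, positive is downstream of Malat1). Filled points have an adjusted p under 0.05 and members are red. Besides Malat1 and Neat1 only Slc25a45 at 0.31 and Capn1 at -0.15 are filled.

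Around Gm26917 on chromosome 17, 7 other genes are annotated within 200 kb, and 1 was tested. CT010467.1 (ENSMUSG00000106106), annotated as rRNA at chr17:39846353-39848827 on the minus strand, lies beyond the end of Gm26917 with 11 bases between. RefSeq places Rn18s-rs5, an 18S rRNA-related sequence, at chr17:39846354-39848202 in the same stretch. The counts of CT010467.1 were 10272, 6871 and 6753 in controls 1 to 3, against 2988, 2303 and 2472 in cKO samples 1 to 3. The groups were far apart, and control replicate 1 was the highest. The mean level in control was 133 CPM (SD 41.8, n = 3), against 48.5 CPM in cKO (SD 12.3, n = 3), a log2 fold change of -1.49 (SE 0.18, adjusted p = 2.7e-05, edgeR).

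CT010467.1 thus fell with Gm26917, by a larger factor and from far fewer counts. Ribosomal RNA was removed from these libraries before sequencing, and the part that this removal, or reads of pre-ribosomal RNA, had in the values of Gm26917 was not tested. Gm42418 and AY036118, which overlap CT010467.1, were listed at 0 in all samples, as were the mitochondrial mt-Rnr1 and mt-Rnr2. The other tested genes of the rRNA-related list were not called by edgeR. Lars2, a mitochondrial leucyl-tRNA synthetase gene, was at -0.10 on the log2 scale (SE 0.24, adjusted p = 0.859, edgeR). Gm15564 was at -0.09 (SE 0.45, adjusted p = 0.930, edgeR), and control replicate 3 was highest for both. Errors this wide cannot exclude a fall of the size seen for Gm26917. Whether Gm26917 is a nuclear lncRNA, as its listing with Malat1 and Neat1 holds, cannot be read from counts of whole-cell RNA.

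Overlapping annotation covered a small part of the members. Other genes overlapped 7.72% of the Malat1 exon bases, 1.85% of those of Neat1 and 0% of those of Gm26917, and each of those genes was at 0 counts in every sample. How reads shared by overlapping genes were counted is not stated, so the 0 counts do not show that those genes were silent. Of all 75-base windows of the longest transcript, the length of a read, 5.66% in Malat1 were also found in transcripts of other genes, 0.783% in Neat1 and 0% in Gm26917. The search covered annotated transcripts only, so copies elsewhere in the genome, such as ribosomal DNA, would not be found. The 0% of Gm26917 thus does not show that its reads are unique to it. The strand setting of the counting is not stated, so reads from an antisense transcript would not be told apart from those of a member.

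Paraspeckles need proteins as well as Neat1. Of the 26 tested genes in the list of paraspeckle proteins, 0 were higher and 3 were lower in cKO by edgeR, and 23 passed neither way. Of all tested genes, 9.38% were higher and 6.46% lower. The median log2 fold change of the list was -0.04, against -0.0011 over all tested genes. Taf15, an RNA-binding protein of the FET family, was at -0.37 on the log2 scale (adjusted p = 0.0025). Rbm3, a cold-induced RNA-binding protein, was at -0.10 (adjusted p = 0.0464). The call of Rbm3 was lost in 9 of 13 other settings, and the number lower ran from 1 to 4 over the settings. None was higher at an unadjusted p under 0.05 or by DESeq2, which called 2 lower. The core proteins did not pass the test: Nono was at -0.03 on the log2 scale (adjusted p = 0.640), Sfpq 0.06 (adjusted p = 0.263) and Pspc1 -0.01 (adjusted p = 0.916).

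Of the 26 tested genes for nuclear speckle proteins, where Malat1 resides, 1 was higher and 1 lower, against 9.38% and 6.46% of all tested genes. The median log2 fold change of the list was -0.0047. The higher gene was Clk1, a kinase of splicing factors, at 0.11 (adjusted p = 0.0235). The lower gene was Ddx39b, an RNA helicase of splicing and export, at -0.11 (adjusted p = 0.0174). Each call was lost in 5 of 13 other settings. The 12 genes for the processing of the Malat1 3′ end include the RNase P subunits and Elac2, the tRNA 3′ endonuclease. None was higher by edgeR or DESeq2 and 2 were lower, in every setting, and 2 were higher at an unadjusted p under 0.05. Rpph1, the RNA subunit of RNase P, had 22, 70 and 61 counts in the controls, against 12, 7 and 19 in the cKO samples, a log2 fold change of -1.86 (SE 0.40, adjusted p = 0.0046). Rpp38, a protein subunit, had -0.20 (adjusted p = 0.010), and Elac2 had -0.03 (adjusted p = 0.705).

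Of the 32 tested genes in a list of other named lncRNAs, 6 were higher and 2 lower in cKO, against 9.38% and 6.46% of all tested genes. The median log2 fold change of the list was -0.0008. The highest were Mirg at 1.59 (adjusted p = 8.4e-09), then Meg3 (adjusted p = 5.6e-10), then Rian at 1.35 (adjusted p = 2.4e-10), neighbours in an imprinted cluster on chromosome 12. Meg3 nevertheless took at most 0.00379% of all counts in any sample, far below the members. The genes lower in cKO were 1700020I14Rik at -0.14 (adjusted p = 0.0089) and Kcnq1ot1, the antisense lncRNA of an imprinted domain, at -0.12 (adjusted p = 0.0291), the second lost in 7 of 13 other settings.

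**Figure D4:**
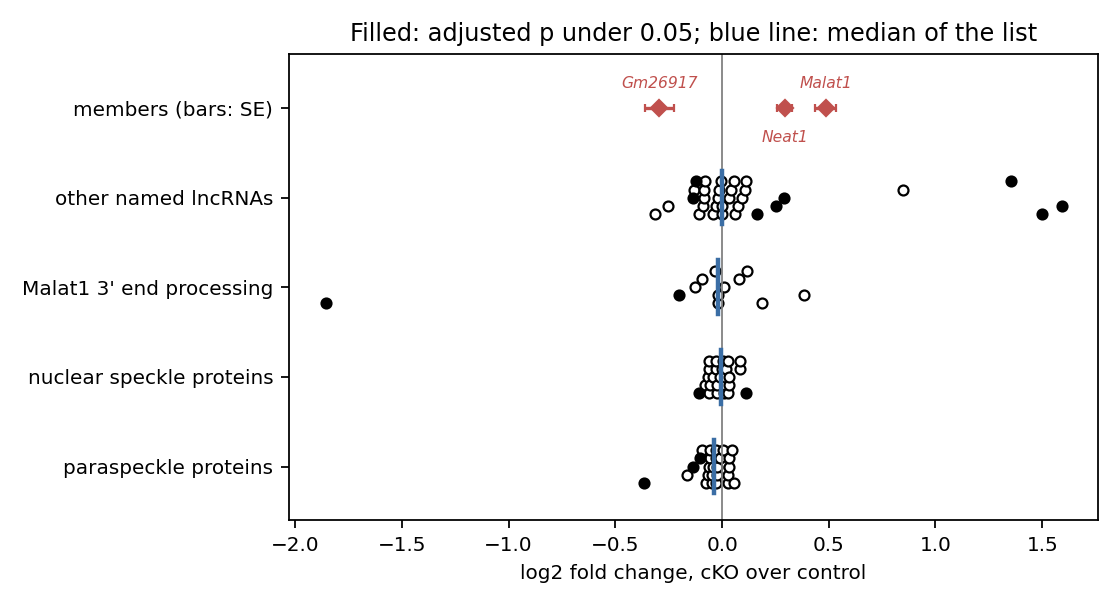
Log2 fold change of Hira cKO over control for every tested gene of 4 lists, with the 3 members above them (diamonds, SE bars). Filled points have an adjusted p under 0.05 and the blue line is the median of each list. Medians lie between -0.04 and 0, the members at 0.49, 0.29 and -0.29, and the points farthest out are Rpph1 at -1.86 and Mirg, Meg3 and Rian above 1.

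Genes that mark cell types also differed between the groups. The 12 satellite cell markers were all detected, summing to 7704 to 7776 CPM in control and 6891 to 7297 CPM in cKO, with 8 lower (5 to 8 over the settings), 1 higher and a median log2 fold change of -0.14. Des, at a mean of 3199 CPM in control, and Chrna1, at 2323 CPM, made up most of that sum, while Pax7 stood at 39.3 CPM. Over all tested genes, 9.38% were higher and 6.46% lower. Myf5, a myogenic transcription factor, had -0.37 (adjusted p = 1.9e-06), Pax7, the satellite cell regulator, had -0.19 (adjusted p = 0.0066), and Cd34, a marker used in the sort, was the gene that was higher, by 0.49 (adjusted p = 0.0065). All 12 macrophage markers were higher in cKO, summing to 136 to 141 CPM in control and 289 to 338 CPM in cKO with a median of 1.06, although CD45+ cells were gated out. DESeq2 called 11 of them, and the call of Aif1 was lost in 7 of 13 other settings. The largest log2 fold changes among them were those of Ctss at 1.19, Lyz2 at 1.18 and Fcgr1 at 1.18. Of 6 tested fibroblast markers 4 were higher, with a sum of 527 to 553 CPM against 783 to 875 CPM, led by the collagen gene Col1a1 at 1.29. Of 8 endothelial markers 4 were higher (2 to 4 over the settings), with a sum of 15.3 to 17.3 CPM against 24.7 to 29.7 CPM, led by Flt1, a VEGF receptor gene, at 1.12. The study itself reported Cdh5 and Pdgfra as higher in cKO satellite cells by RT-qPCR, with VE-Cadherin staining, and read this as expression of other lineages. Whether the marker reads here came from satellite cells or from other cells was not tested. None of the listed markers was at 0 in all samples. Their part in the values of Malat1, Neat1 and Gm26917 was not tested.

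As a description over the 6 samples, which share the same 2 groups, log2 CPM of Malat1 and Neat1 ran with a Pearson r of 0.976, Malat1 and Gm26917 with -0.829, and Neat1 and Gm26917 with -0.905. Among 8005 genes with a mean of at least 20 CPM, the most alike to Malat1 were Plekhg3 (r = 0.998), Dab2ip (0.997) and Inhba (0.997), the last encoding the activin A subunit, with a log2 fold change of 1.15. The most alike to Neat1 were Ccn1 (r = 0.998), a matricellular protein gene with a log2 fold change of 0.60, then Ppp1r18 (0.997) and Hnrnph1 (0.997). The most alike to Gm26917 were the histone gene Hist1h2bj (r = 0.996), Gm6517 (0.995) and the histone gene Hist2h3c2 (0.992), with log2 fold changes of -0.26, -0.07 and -0.19.

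**Figure D5:**
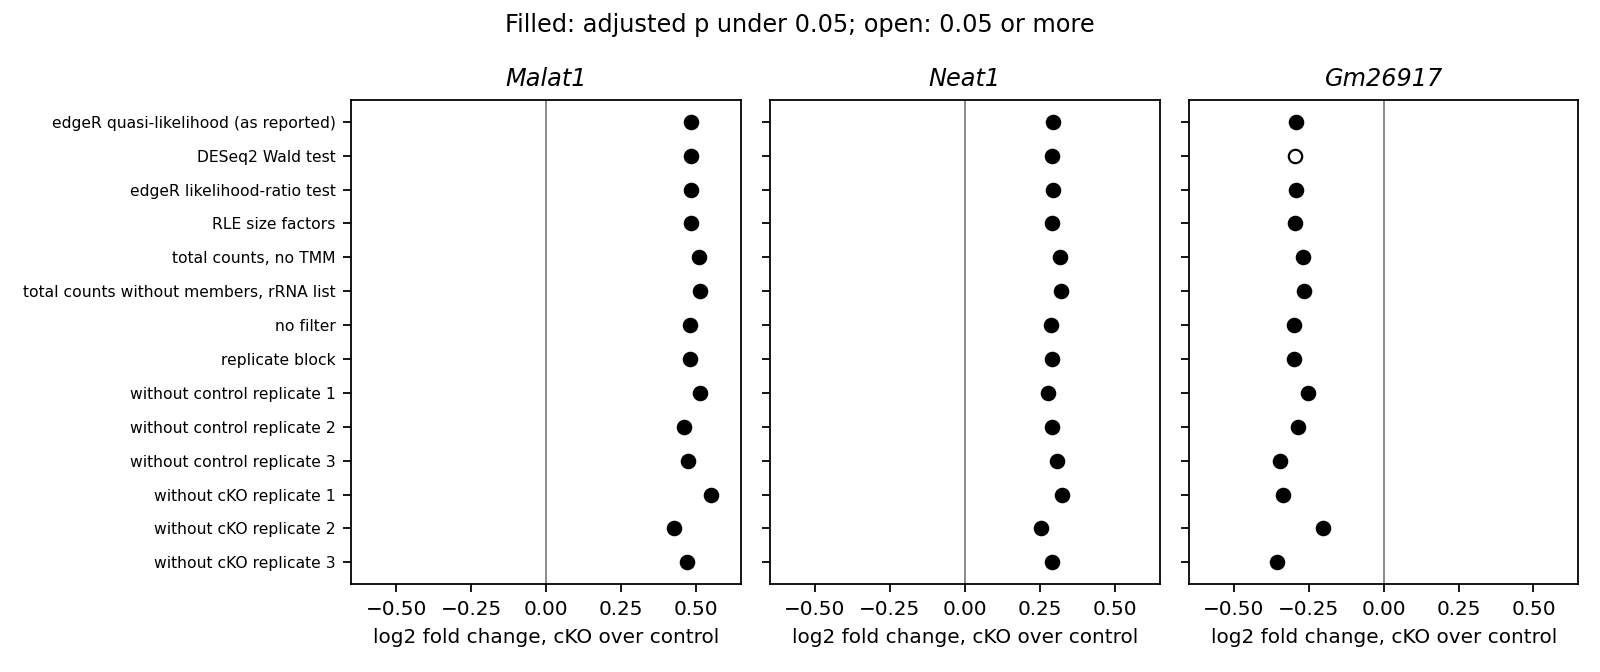
Log2 fold change of Hira cKO over control for Malat1, Neat1 and Gm26917 in the reported edgeR fit and 13 other settings, including each sample left out in turn. Filled points have an adjusted p under 0.05. Malat1 runs from 0.43 to 0.55 and Neat1 from 0.25 to 0.33, and Gm26917 runs from -0.35 to -0.20 with DESeq2 as the 1 open point.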

How the data were processed

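RNA-seq libraries of rRNA-depleted total RNA (400 ng, stranded kit, single-end reads of 75 bp) were analysed. The authors aligned reads to mm10 with Bowtie2 2.3.4.2, an aligner without spliced alignment, and the deposited raw counts per gene were made with featureCounts 1.6.3. Normalized counts and a DESeq2 2.11.40.6 comparison (mean, log2 fold change, Wald score, p-values) were also deposited and were not used.

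All 55536 identifiers were found in GENCODE M21. Differences were tested with edgeR 4.0.16 in R 4.3.3 (filterByExpr, TMM, quasi-likelihood test, genotype as the only term), with Benjamini-Hochberg adjustment over 22404 genes and calls at an adjusted p under 0.05. Log2 fold changes are cKO over control. CPM and RPKM used total counts on genes. The fit was tested on simulated data. Alternatives covered DESeq2 1.42.0, the likelihood-ratio test, scaling, the filter, a replicate block and leaving out each sample. Summaries used Python 3.11.15, with scipy 1.17.1 for permutation tests.

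The members and all gene lists were chosen with earlier results of these data known. Named genes are the members, tested genes within 200 kb, the rRNA-related list, up to 3 called genes with the largest change per direction in each other list, and the 3 most correlated genes per member. Nono, Sfpq, Pspc1, Elac2, H19, Rn7sk and the abundance neighbours were added after their values were seen. Alignments to rDNA, the RT-qPCR, ChIP and C2C12 experiments were not analysed here. A few genes that the naming rule covers are not reported here.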

Additional observations from a re-analysis of the deposited data

How the results depend on the processing

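Malat1 and Neat1 kept their direction and an adjusted p under 0.05 in all 13 settings tried. With each sample left out in turn, Malat1 ran from 0.43 to 0.55, Neat1 from 0.25 to 0.33 and Gm26917 from -0.35 to -0.20 on the log2 scale. Gm26917 kept its call in 12 settings and lost it with DESeq2 (-0.30, adjusted p = 0.0545). Genes lower in cKO numbered 917 to 1673 and genes higher 1571 to 2214 with a sample left out. The 3 lowest numbers of lower genes, 917, 934 and 960, came without control replicates 1, 2 and 3. The cause was not tested. With the replicate block, Malat1 was at 0.48 (adjusted p = 7.7e-05), Neat1 at 0.29 (adjusted p = 0.00012) and Gm26917 at -0.30 (adjusted p = 0.0065), with 1901 genes higher and 1251 lower. Deviations of same-numbered samples had correlations of -0.013, -0.0045 and -0.015. With 3 samples per group, these values cannot settle whether the samples were collected in pairs. Scaling to total counts gave 70.0% of called genes as higher, against 59.2% with TMM, and total counts without the members and the rRNA-related list gave 71.7%. There the median over all genes was 0.02 and 0.03. Other denominators left the log2 ratio of shares, cKO over control, at 0.50 to 0.51 for Malat1. For Neat1 it was 0.31 to 0.32, and for Gm26917 -0.28 to -0.27. With a sample left out, the log2 ratio of shares, cKO over control, ran from 0.45 to 0.58 for Malat1, 0.28 to 0.35 for Neat1, -0.32 to -0.18 for Gm26917 and 0.15 to 0.21 for the 3 together. Low counts widen the error of Rpph1, Frmd8os and Gm27702.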
